A study of Mus musculus with 12 samples.

Results

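The crystallins described here are the genes Cryaa, Cryab, Cryba1, Cryba2, Cryba4, Crybb1, Crybb2, Crybb3, Crygs and Crygn, 10 of the 21930 genes in the read-count table, chosen by gene name and followed over 12 libraries. The libraries came from eye tissue of wild type male C57BL/6J mice in 4 groups of 3, and the question put to the data was whether the crystallin genes move together across libraries, as they would if lens tissue were carried over into some of them. In the AL groups food was freely available, and in the IF groups food was withheld on alternate days for 12 weeks from 8 weeks of age. Mice of both diets then received 1 intraperitoneal injection, either of PBS (AL + PBS and IF + PBS) or of sodium iodate in PBS at 25 mg/kg (AL + NaIO3 and IF + NaIO3), and tissue was taken 7 days later with the diets kept on. Sodium iodate is an oxidant that damages the retinal pigment epithelium (RPE) first and the photoreceptors after it; given as a single systemic dose it makes an acute model of a slow human disease. The methods lyse both eye cups of a mouse together for qPCR and give the RNA-seq sample size without naming its unit. The libraries of a group are therefore likely to be separate mice, but as this is not stated for them, the p-values are taken to measure the spread between libraries.

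Crystallins are the soluble proteins that fill the fibre cells of the lens and give it its refractive index. The alpha crystallins, encoded by Cryaa and Cryab, are small heat shock proteins that hold unfolding proteins in solution; Cryaa is largely a lens gene, while Cryab is also made in muscle, heart, glia and retina. The beta and gamma crystallins share a compact fold of Greek key motifs and are mainly structural lens proteins, although several are also made in the retina, where alpha and beta crystallins are known to rise after injury.

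The gene positions in the count table are those of mouse build GRCm38: all 10 crystallin genes overlap their RefSeq entries on GRCm38.p6 and 0 of 10 overlap them on GRCm39, the build that the methods name. Cryaa lies at chr17:31677807-31681733, Cryab at chr9:50751325-50756636, Cryba1 at chr11:77718615-77725283, Cryba2 at chr1:74889934-74893143 and Crygs at chr16:22805203-22811577. The other 5 are on chromosome 5, with Crygn at chr5:24751003-24758008 and the rest in neighbouring pairs. Cryba4 (chr5:112246493-112252518) lies 3296 bases from Crybb1 (chr5:112255815-112269585), and Crybb2 (chr5:113058258-113070117) lies 5721 bases from Crybb3 (chr5:113075839-113081584). RefSeq promoter sequences on GRCm38.p6 were found for 9 of the 10 genes. The 250 bases before the RefSeq start are printed below for 6 of them, to show the alpha crystallin with the widest range of levels, one beta crystallin that followed it, and both members of each neighbouring pair, which differed in their levels as described further on. Capitals mark TGCTGAC, one arm of the element bound by Maf proteins, and TATAAA, the TATA box, each searched on both strands.
Cryaa, chr17:31677681-31677930, plus strand: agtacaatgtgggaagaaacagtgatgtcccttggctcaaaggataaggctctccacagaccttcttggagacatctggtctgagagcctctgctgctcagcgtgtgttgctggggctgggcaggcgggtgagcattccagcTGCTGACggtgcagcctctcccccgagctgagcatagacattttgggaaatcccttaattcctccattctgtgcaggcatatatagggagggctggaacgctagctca
Cryba1, chr11:77725294-77725543, minus strand: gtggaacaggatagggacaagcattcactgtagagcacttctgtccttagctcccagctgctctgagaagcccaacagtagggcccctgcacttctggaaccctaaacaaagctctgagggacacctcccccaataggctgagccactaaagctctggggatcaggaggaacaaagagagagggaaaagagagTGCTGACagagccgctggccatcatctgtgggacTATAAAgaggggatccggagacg
Cryba4, chr5:112252519-112252768, minus strand: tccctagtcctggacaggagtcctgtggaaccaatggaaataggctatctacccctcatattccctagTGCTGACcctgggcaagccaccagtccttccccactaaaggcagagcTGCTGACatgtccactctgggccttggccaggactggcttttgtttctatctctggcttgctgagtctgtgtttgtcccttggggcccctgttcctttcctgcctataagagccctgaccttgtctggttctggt
Crybb1, chr5:112255570-112255819, plus strand: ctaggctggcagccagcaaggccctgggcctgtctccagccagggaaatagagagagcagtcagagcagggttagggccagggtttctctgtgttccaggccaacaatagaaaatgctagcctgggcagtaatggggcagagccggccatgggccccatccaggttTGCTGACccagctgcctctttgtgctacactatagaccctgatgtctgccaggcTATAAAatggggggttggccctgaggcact
Crybb2, chr5:113070118-113070367, minus strand: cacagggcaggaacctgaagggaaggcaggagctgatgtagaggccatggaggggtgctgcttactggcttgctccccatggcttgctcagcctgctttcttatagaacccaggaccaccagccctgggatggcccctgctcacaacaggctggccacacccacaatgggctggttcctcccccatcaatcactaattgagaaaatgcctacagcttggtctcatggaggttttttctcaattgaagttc
Crybb3, chr5:113081585-113081834, minus strand: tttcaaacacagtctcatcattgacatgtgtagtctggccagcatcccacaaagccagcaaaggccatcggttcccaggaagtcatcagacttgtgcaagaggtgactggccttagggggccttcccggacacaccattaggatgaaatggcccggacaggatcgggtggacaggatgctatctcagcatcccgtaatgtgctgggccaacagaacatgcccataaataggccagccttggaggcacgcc

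TGCTGAC was present in 4 of the 9 sequences, starting 108 bases before the start of Cryaa, 57 before that of Cryba1, 84 before that of Crybb1, and 182 and 135 before that of Cryba4. Over the same window it was present in 3.81% of 32851 RefSeq promoters. TATAAA was present in Cryba1, Crybb1 and Crygs, and in 12.4% of all promoters. GAANNTTC, the core of the element bound by heat shock factors, was searched as well and was in 0 of the 9 sequences and in 6.69% of all promoters. The motifs did not overlap each other in these sequences. A match is a stretch of letters and not a shown binding site, and the absence of a match concerns only these letters in this window.

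The libraries held between 26364665 and 43046950 counts, and AL + PBS replicate 2 was the deepest of them. Levels are given in CPM, the count of a gene per 1000000 counts of the library after scaling by TMM factors, in which 3 counts, taken here as the floor of detection, correspond to 0.0708 to 0.107 CPM depending on the library. The tissue is labelled as a complex of RPE, choroid and sclera, while the methods describe eye cups and figure legends describe retina. Both RPE and neural retina were present in each library: Rpe65, the isomerase of the RPE visual cycle, was between 39.6 and 145.3 CPM, and Gnat1, the rod transducin alpha subunit, between 3163 and 10890 CPM. The summed level of 12 RPE genes was between 659.7 and 2340 CPM, and that of 10 stroma genes of choroid and sclera between 107.9 and 1395 CPM. Libraries also stood apart in other tissues: AL + NaIO3 replicate 3 had the highest stroma level (1395 CPM) and the lowest Gnat1 level (3163 CPM), and AL + NaIO3 replicate 2 had 145.8 CPM of Krt12, a corneal keratin, against at most 9.44 CPM elsewhere. In whole-tissue RNA, fewer cells of a type and less RNA per cell cannot be told apart.

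Cryaa was the crystallin with the widest range. It had 85, 6007 and 59 counts in AL + PBS replicates 1, 2 and 3, 0 counts in each IF + PBS library, 0, 4 and 0 counts in AL + NaIO3 and 2, 4 and 0 counts in IF + NaIO3. The level in AL + PBS replicate 2 was 141.9 CPM, against 2.73 and 1.93 CPM in the other AL + PBS libraries and at most 0.142 CPM in the remaining 9. Thus a single library carried nearly all Cryaa reads, its group mates carried a trace, and the other 9 libraries lay at or near the floor. Its mean in AL + PBS was 48.8 ± 80.6 CPM (SD, n = 3), a spread larger than the mean itself.

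**Figure D1:**
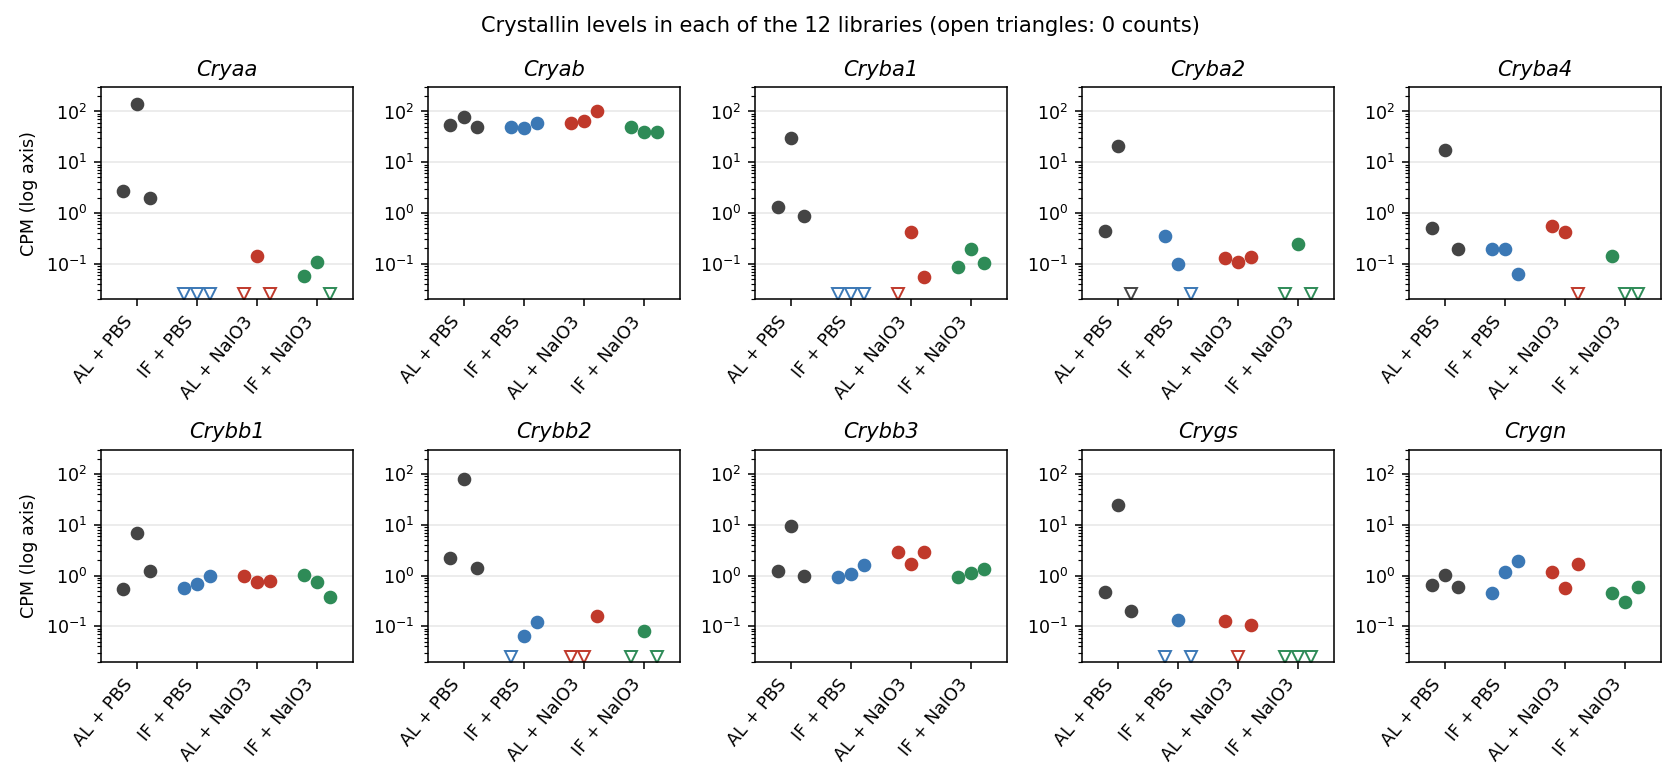
Level of each of the 10 crystallin genes in CPM (log axis) in the 12 libraries, with 3 points per group for replicates 1 to 3 from left to right and open triangles for 0 counts. Cryaa, Cryba1, Cryba2, Cryba4, Crybb2 and Crygs have 1 high point, AL + PBS replicate 2, above low or absent values elsewhere, while Cryab and Crygn do not have their highest point there.

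Among the beta crystallins, Crybb2, the most abundant of them per gene length in AL + PBS replicate 2, had a pattern like that of Cryaa. It had 69, 3409 and 43 counts in AL + PBS, 0, 2 and 4 in IF + PBS, 0, 0 and 6 in AL + NaIO3 and 0, 3 and 0 in IF + NaIO3. Cryba1, which encodes the betaA3 and betaA1 proteins, had 40, 1283 and 27 counts in AL + PBS, 0 in each IF + PBS library, 0, 12 and 2 in AL + NaIO3 and 3, 7 and 3 in IF + NaIO3. For Crybb2 and Cryba1, each AL + PBS library was above each of the other 9 libraries, as it was for Cryaa. This order was shown by 0.758% of the 15970 genes tested in the 12 libraries, but these 3 genes passed the filter on low counts only through AL + PBS, so the order is a description and nothing is read from the share.

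Cryba2 and Cryba4, acidic beta crystallins like Cryba1, shared the high library but not the clean order of groups. Cryba2 had 14, 892 and 0 counts in AL + PBS, 11, 3 and 0 in IF + PBS, 4, 3 and 5 in AL + NaIO3 and 0, 9 and 0 in IF + NaIO3. Cryba4 had 16, 751 and 6 counts in AL + PBS, 6, 6 and 2 in IF + PBS, 17, 12 and 0 in AL + NaIO3 and 5, 0 and 0 in IF + NaIO3. Outside AL + PBS replicate 2 the groups overlapped for both genes at levels of at most 0.546 CPM. Crygs, the gamma crystallin of the outer lens cortex, had 15, 1038 and 6 counts in AL + PBS, 0, 4 and 0 in IF + PBS, 4, 0 and 4 in AL + NaIO3 and 0 in each IF + NaIO3 library. Its 3 AL + PBS libraries were above the other 9, though replicate 3 only by 0.197 against at most 0.130 CPM.

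Crybb1 and Crybb3, basic beta crystallins next to Cryba4 and Crybb2 on the chromosome, were found in each of the 12 libraries and were again highest in AL + PBS replicate 2. Crybb1 had 17, 288 and 38 counts in AL + PBS, where the levels were 0.545, 6.80 and 1.25 CPM, and between 0.379 and 1.04 CPM in the other 9 libraries. Crybb3 had 38, 407 and 30 counts in AL + PBS, 29, 33 and 52 in IF + PBS, 92, 48 and 110 in AL + NaIO3 and 32, 41 and 39 in IF + NaIO3. In CPM these Crybb3 values were 1.22, 9.61 and 0.983 in AL + PBS, 0.928, 1.07 and 1.61 in IF + PBS, 2.95, 1.71 and 2.96 in AL + NaIO3, and 0.921, 1.13 and 1.34 in IF + NaIO3. With AL + PBS replicate 2 set aside, each AL + NaIO3 library was above each of the other 8 libraries for Crybb3 and for no other crystallin, a pattern that 4.75% of the 15970 genes tested in the 12 libraries showed.

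Cryab and Crygn did not have their peak in AL + PBS replicate 2. Cryab, the chaperone also found outside the lens, had 53.0, 79.3 and 50.3 CPM in AL + PBS, 48.4, 46.9 and 60.5 in IF + PBS, 58.9, 63.6 and 100.8 in AL + NaIO3 and 50.5, 39.4 and 39.4 in IF + NaIO3. Its highest library was AL + NaIO3 replicate 3, with AL + PBS replicate 2 next. Crygn, the gamma-N crystallin known from retina as well as lens, had 0.642, 1.04 and 0.590 CPM in AL + PBS, 0.448, 1.17 and 1.92 in IF + PBS, 1.16, 0.568 and 1.69 in AL + NaIO3 and 0.460, 0.303 and 0.586 in IF + NaIO3. These levels rest on 11 to 63 counts, and the highest was IF + PBS replicate 3.

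The crystallins thus differed in how far AL + PBS replicate 2 exceeded the highest of the other 11 libraries. The ratio was 52.0 for Cryaa, 50.9 for Crygs, 46.9 for Cryba2, 36.4 for Crybb2, 32.5 for Cryba4 and 23.6 for Cryba1. For Crybb1 and Crybb3 it was 5.46 and 3.25. Cryab and Crygn, which like these had reads in every library, were below their highest library in AL + PBS replicate 2, at ratios of 0.787 and 0.541. The neighbouring pairs on chromosome 5 were therefore split, with Cryba4 at 32.5 beside Crybb1 at 5.46, and Crybb2 at 36.4 beside Crybb3 at 3.25. Crybb1 and Crybb3 kept a level in the other 11 libraries, of at least 0.379 and 0.921 CPM, where Cryba4 and Crybb2 went down to 0 counts in 3 and 5 libraries.

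To see how far this excess was a matter of crystallins, the same ratio was taken for each of the 14435 genes with at least 30 counts in AL + PBS replicate 2, a rule chosen after the values had been seen. More than 5 times the highest other library was reached by 9 genes, and all 9 were crystallins: Cryaa, Cryba1, Cryba2, Cryba4, Crybb1, Crybb2, Crygs, and the lens gamma crystallins Crygb and Crygc, which are outside the chosen 10. At more than 3 times, 14 genes remained, the further ones being Crybb3, Crygd and the lens genes Bfsp1, Grifin and Lgsn. At more than 2 times the count was 15, with Gm43951 as the only gene of neither kind. In the other 11 libraries the 5-fold rule found 0 of the 10 crystallins. For those highest in AL + PBS replicate 2 this was fixed by the rule, which sets a library against the highest of all others. Only Cryab and Crygn could have passed elsewhere, so no contrast is read from it. The rule found 112 other genes in AL + NaIO3 replicate 3, 10 in AL + NaIO3 replicate 2 and at most 2 elsewhere.

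**Figure D2:**
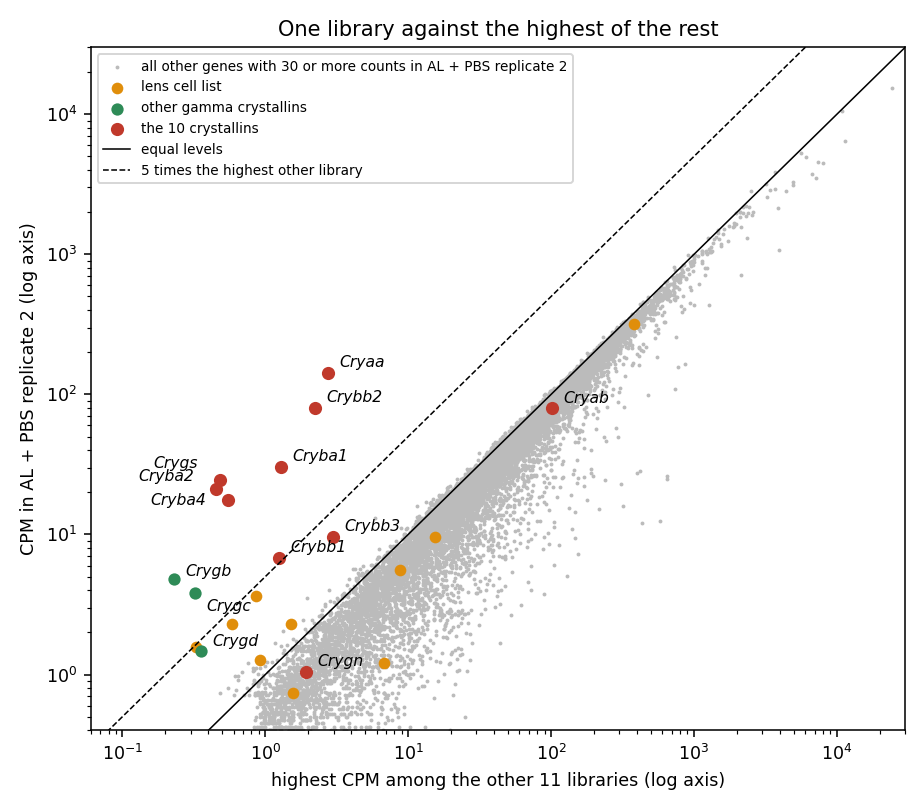
CPM in AL + PBS replicate 2 (vertical) against the highest CPM among the other 11 libraries (horizontal), both on log axes. Genes with at least 30 counts in that library or in any of the other 11 are included, though the key names only the former. The 9 points above the dashed line of a 5-fold excess are crystallins, the lens cell genes closest to it are Grifin, Bfsp1 and Lgsn, and Cryab and Crygn lie below the line of equal levels.

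Other lens genes moved with the crystallins to differing degrees. Of the remaining gamma crystallins, Crygb had 6, 202 and 7 counts in AL + PBS and Crygc 10, 161 and 2, and both had 0 counts in each of the other 9 libraries, which allows at most 0.107 CPM in any of them. Crygd had 11, 62 and 4 counts in AL + PBS and at most 6 elsewhere, while Cryga, Cryge and Crygf had at most 9 counts in any library. Among 16 non-crystallin genes of lens cells, Grifin, a lens galectin-related protein, had 67 counts in AL + PBS replicate 2 and at most 10 elsewhere, a ratio of 4.86. Bfsp1, which encodes the beaded filament protein filensin, had 154 counts against at most 25 (4.22), and Lgsn, lengsin, had 97 against at most 17 (3.91). The lens water channel Mip exceeded its next library by only 1.51 and the membrane protein Lim2 by 1.40, both with reads in several other libraries, and Tdrd7, the most abundant of the list, was at 0.833 of its highest library. Lim2 is listed more than once in the count table, and its value here is that of the entry with more reads. The part of lens tissue in the crystallin levels was not tested, since no lens sample was among the libraries.

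The traces in the other 2 AL + PBS libraries can be set against replicate 2 gene by gene. In replicate 1 the level was 1.92% of that in replicate 2 for Cryaa (95% interval 1.53 to 2.38, exact binomial), 2.75% for Crybb2 (2.13 to 3.49), 1.96% for Crygs (1.09 to 3.25), 2.13% for Cryba2 (1.16 to 3.6), 2.89% for Cryba4 (1.65 to 4.73) and 4.24% for Cryba1 (3.01 to 5.8). In replicate 3 it was 1.36% for Cryaa (1.04 to 1.76), 1.75% for Crybb2 (1.26 to 2.36), 0.802% for Crygs (0.294 to 1.75), 1.11% for Cryba4 (0.405 to 2.42) and 2.92% for Cryba1 (1.92 to 4.27), and Cryba2 had 0 counts, which allows up to 0.575%. These intervals cover counting error only. The intervals of Cryaa, Crybb2, Crygs and Cryba4 overlapped in both libraries, an overlap which does not test whether they differ. Cryba1 was above Cryaa in both libraries and Cryba2 below it in replicate 3, without overlap of the intervals. Crybb1 and Crybb3 were at 8.02% and 12.7% in replicate 1, Cryab at 66.9% and Crygn at 61.8%. Replicate 3 had Crybb1 at 18.3%, Crybb3 at 10.2%, Cryab at 63.5% and Crygn at 56.7%.

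The proportions among these 6 genes, which are those with at least 1 library at or under the floor, were compared between the AL + PBS libraries. Their summed counts were 239, 13380 and 141 in AL + PBS and between 3 and 31 in the other 9 libraries. Cryaa made up 35.6% of the sum in replicate 1 (95% interval 29.5 to 42.0), 44.9% in replicate 2 (44.1 to 45.7) and 41.8% in replicate 3 (33.6 to 50.4). Crybb2 made up 28.9%, 25.5% and 30.5%, with intervals of 23.2 to 35.1, 24.7 to 26.2 and 23.0 to 38.8. The share of Cryaa in replicate 1 was thus below that in replicate 2 without overlap of the intervals, while the shares of Crybb2 overlapped. Cryba1 was at 16.7% and 19.1% in replicates 1 and 3 (12.2 to 22.1 and 13.0 to 26.6) against 9.59% in replicate 2 (9.10 to 10.1), and Cryba2 at 0% in replicate 3 (0 to 2.58) against 6.67% in replicate 2 (6.25 to 7.10). The sums in the 9 libraries outside AL + PBS are too small for such proportions.

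Seen over all 10 crystallins, Cryab dominated every library but one. It held 84.0% and 87.1% of the crystallin counts in AL + PBS replicates 1 and 3, between 90.9% and 95.1% in the 9 libraries of the other groups, and 19.2% (95% interval 18.6 to 19.8) in AL + PBS replicate 2. The summed level of the other 9 genes was 333.4 CPM in that library, 10.1 and 7.44 CPM in its group mates, and between 2.41 and 5.91 CPM in the rest.

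**Figure D3:**
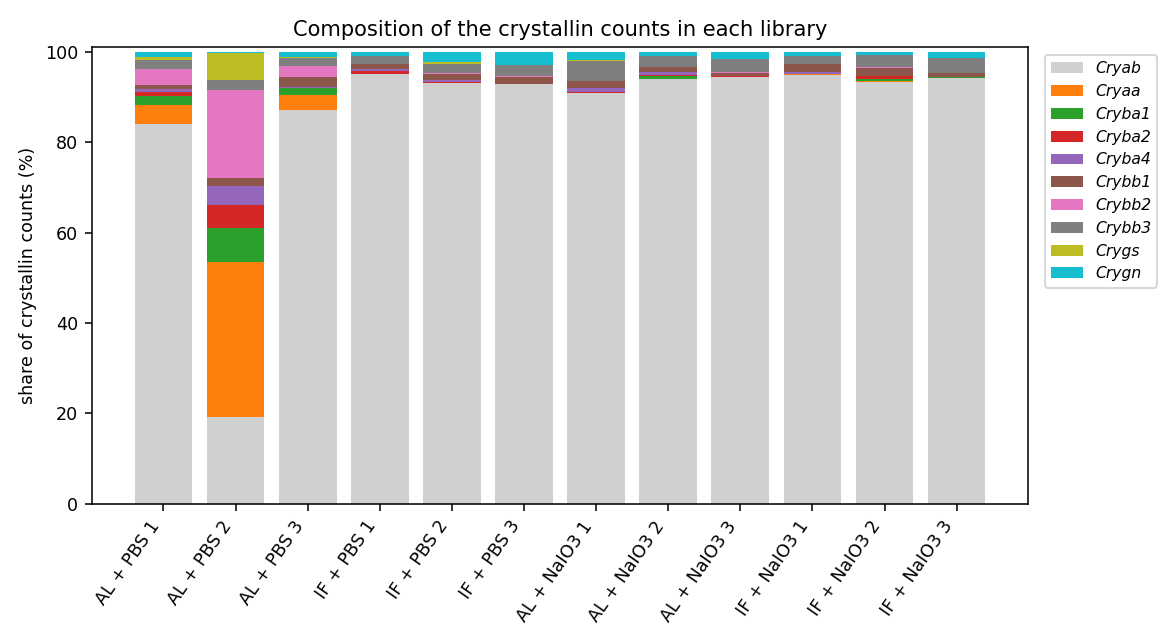
Share of the counts of the 10 crystallin genes (percent, not corrected for gene length) taken by each gene in each of the 12 libraries. Cryab, in grey, takes 84.0% to 95.1% in 11 libraries and 19.2% in AL + PBS replicate 2, where Cryaa and Crybb2 are the largest other segments.

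Levels of different genes were compared per length, on the authors' FPKM scale, which divides the reads of a gene by its length and by the size of the library. Cryab was first in all 4 groups, at 53.7 ± 13.98 FPKM in AL + PBS, 47.5 ± 8.12 in IF + PBS, 71.1 ± 28.4 in AL + NaIO3 and 37.2 ± 5.91 in IF + NaIO3 (SD, n = 3). In AL + PBS replicate 2 alone, Cryaa (91.6 FPKM) and Crybb2 (78.9) were above Cryab (69.7), and the group means that put them next after Cryab rest on that library. In IF + PBS, Crygn (1.32 ± 0.818), Crybb3 (1.10 ± 0.247) and Crybb1 (0.681 ± 0.185) followed Cryab and did not differ from each other beyond their spread. In AL + NaIO3, Crybb3 was next at 2.16 ± 0.509 FPKM, ahead of Crygn at 1.34 ± 0.802 and Crybb1 at 0.811 ± 0.0692; the ranges of Crybb3 and Crygn overlapped, and those of Crybb3 and Crybb1 did not. In IF + NaIO3 Crybb3, Crybb1 and Crygn lay at 0.969 ± 0.253, 0.626 ± 0.294 and 0.520 ± 0.0642 FPKM, and Crybb1 overlapped both others. The 6 genes of the AL + PBS excess were at or below 0.342 FPKM on average in each group other than AL + PBS.

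The effect of sodium iodate in freely fed mice was tested by comparing AL + NaIO3 with AL + PBS in edgeR's quasi-likelihood test. A gene was called at a Benjamini-Hochberg adjusted p under 0.05 with a change of at least 1.5-fold, which 0.0769% of 15612 genes met. Of the crystallins, 8 passed the filter on low counts and 0 were called. In edgeR 4 had an unadjusted p under 0.05, as did 10.2% of all genes tested. Of these 4, Cryaa, Cryba1 and Crybb2 passed the filter only through AL + PBS, so the 10.2% is no measure for them. Without AL + PBS replicate 2 the count was 3 of 8, and 1005 of 15905 genes, with the same limit. DESeq2 gave no p for 4 of the 8 (Cryaa, Cryba1, Cryba4 and Crybb2), where it marks a count as an outlier, and called 0 of the other 4. A single edgeR fit of the 12 libraries called Cryaa and Crybb2 (adjusted p of 0.0463 and 0.0315), and 1.11% of genes, but both genes entered that fit only through AL + PBS, where nearly all their reads lie in 1 library, and the calls are not taken as support. Cryba2 and Crygs were not tested. The fitted log2 fold changes of Cryaa, Crybb2 and Cryba1 were -10.06 ± 2.42, -8.75 ± 2.12 and -6.13 ± 1.74 (SE), with adjusted p of 0.259, 0.26 and 0.302. These 3 genes passed the filter only through AL + PBS, which fixed their direction. That their groups did not overlap, with AL + NaIO3 lower, is thus a description, and the 8.32% of all genes tested with this order is no measure for them. Without AL + PBS replicate 2 the changes were -5.62, -4.85 and -2.78, with adjusted p of 0.558, 0.695 and 0.809, and the sign, fixed by the filter, says nothing of its stability.

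The other 5 tested crystallins overlapped between these groups. Cryba4 was at -4.27 ± 1.75 (adjusted p = 0.468) and Crybb1 at -1.77 ± 0.86 (0.532), and without AL + PBS replicate 2 they were at -0.15 and -0.09. Crybb3 changed sign, from -0.63 ± 0.83 (adjusted p = 0.838) to 1.20 ± 0.50 (unadjusted p = 0.0488, adjusted p = 0.789) once that library was left out. Cryab was at 0.30 ± 0.25 (adjusted p = 0.724) and at 0.53 ± 0.25 without the library, and Crygn at 0.59 ± 0.54 (0.747) and 0.89 ± 0.67. For the same reason no median over the 8 crystallins is given.

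The effect of the diet alone was tested between IF + PBS and AL + PBS, where 0 of the 8 crystallins tested and 0% of 15361 genes were called. In edgeR 6 of the crystallins and 17.1% of all genes had an unadjusted p under 0.05. For Cryaa, Cryba1 and Crybb2, which passed the filter only through AL + PBS, that share is no measure. Without AL + PBS replicate 2 the count was 3 of 8, and 1592 of 15569 genes, with the same limit. DESeq2 gave no p for 4 of the 8 (Cryaa, Cryba1, Cryba2 and Crybb2) and called 0 of the other 4. Cryba4 and Crygs were not tested. Cryaa and Cryba1 had 0 counts in each IF + PBS library, so only a bound can be given: against a floor of 3 counts per library, Cryaa was at least 511-fold and Cryba1 at least 113-fold higher in AL + PBS, and without replicate 2 at least 24.4-fold and 11.3-fold higher. Their edgeR adjusted p were 0.179 and 0.175. Crybb2 was at -8.71 ± 1.94 (adjusted p = 0.175), and at -4.75 ± 0.82 without replicate 2 (unadjusted p = 0.000285, adjusted p = 0.423). Cryaa, Cryba1 and Crybb2 again passed the filter only through AL + PBS, so that their lower place in IF + PBS, without overlap, was fixed by it, and the 11.6% of all genes tested with this order is no measure for them. When IF + PBS replicate 1 was left out, Cryba1 and Crybb2 were called, as were 3.03% of genes, with the same limit. Muscle and cornea genes were also lower in IF + PBS, with a summed level of 14 skeletal muscle genes of 48.0 to 180.6 CPM against 223.8 to 438.0 in AL + PBS, and 23.1 to 40.6 CPM against 60.2 to 111.0 for 10 cornea genes. The sums of 10 stroma genes (107.9 to 162.5 against 186.9 to 262.5 CPM), 10 genes of iris and ciliary body (58.4 to 59.4 against 65.0 to 88.0) and 8 Müller glia genes (4190 to 4265 against 4492 to 5008) were lower without overlap as well, and that of 12 RPE genes was higher (1828 to 2340 against 1566 to 1770). A sum of 16 lens cell genes was lower without overlap too (308.9 to 329.8 against 335.5 to 345 CPM). Most of this sum was Tdrd7, at 316.1 of 345 CPM in AL + PBS replicate 2, where Bfsp1 was at 3.64 CPM. The order of the sums is thus mostly that of 1 gene, which is abundant in every library. Tdrd7 was at -0.08 ± 0.08 (edgeR adjusted p = 0.618). The part of such tissue in the crystallin difference was not tested.

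Of the remaining crystallins in the diet comparison, Cryba2 was at -5.57 ± 1.81 (adjusted p = 0.203), Crybb1 at -1.96 ± 0.77 (0.249) and Crybb3 at -1.72 ± 0.76 (0.286). Without AL + PBS replicate 2 these became -0.58, -0.27 and 0.13. Cryab was at -0.23 ± 0.17 (adjusted p = 0.514) and, without that library, at 0.0097, and Crygn was at 0.63 ± 0.54 (0.575).

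**Figure D4:**
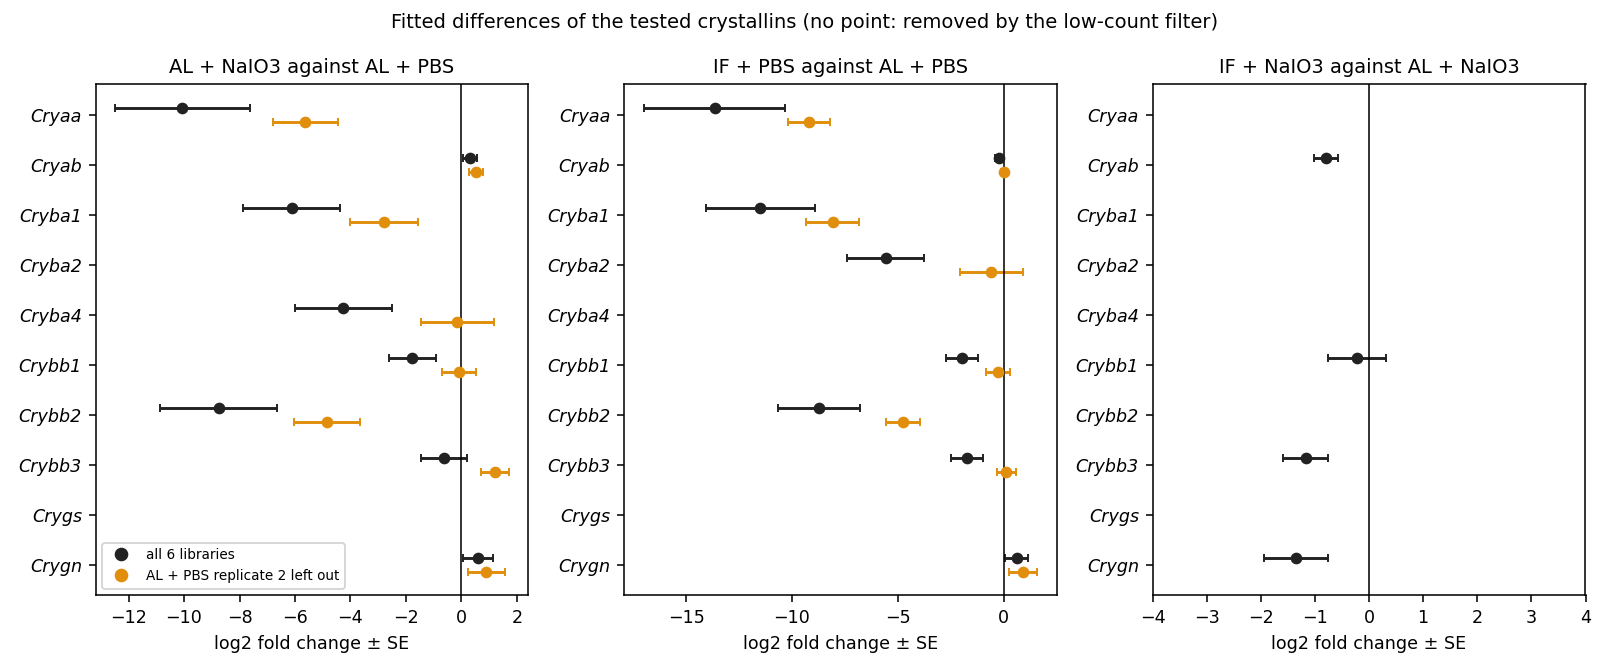
Fitted log2 fold change with its standard error for each tested crystallin in 3 comparisons, with all 6 libraries (black) and with AL + PBS replicate 2 left out (orange, where that library belongs to the comparison). Leaving it out brings Cryba4, Crybb1 and Cryba2 to within 1 standard error of 0 and turns Crybb3 from -0.63 to 1.20 in the first panel, while Cryaa, Cryba1 and Crybb2 stay below 0 at smaller sizes.

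The effect of fasting in injected mice, IF + NaIO3 against AL + NaIO3, involves no AL + PBS library. Here 4 crystallins passed the filter and edgeR called 0, against 0.0383% of 15648 genes; 2 had an unadjusted p under 0.05, as did 11.7% of genes. Cryab was lower in each of the 3 IF + NaIO3 libraries than in each AL + NaIO3 library, at 43.1 ± 6.42 against 74.4 ± 23.0 CPM (SD, n = 3), with a log2 fold change of -0.79 ± 0.22 (unadjusted p = 0.00694, edgeR adjusted p = 0.269). Crybb3 was likewise lower without overlap, at 1.13 ± 0.211 against 2.54 ± 0.721 CPM, with a log2 fold change of -1.17 ± 0.42 (unadjusted p = 0.0221, adjusted p = 0.36). A lower level without overlap was seen in 10.2% of all genes tested. DESeq2 called Cryab, at -0.80 and an adjusted p of 0.0398, in a run that called 3.05% of genes. Without AL + NaIO3 replicate 3, the library with the highest Cryab level, the edgeR change of Cryab was -0.51 (adjusted p = 0.24). Crygn was at -1.35 ± 0.59 (adjusted p = 0.43) and Crybb1 at -0.22 ± 0.54 (0.882), both with overlapping groups. Genes of other cell types were lower in the same comparison: 9 of 10 macrophage and microglia genes had an unadjusted p under 0.05 (median log2 fold change -1.96), as did 7 of 10 stroma genes (-1.57) and 6 of the 9 tested genes of iris and ciliary body (-1.41), with 0 called in each list. All 15 genes of retinal stress and reactive Müller glia had an unadjusted p under 0.05 in edgeR (median log2 fold change -2.95), and 3 were called lower. These lists were chosen with earlier results of these data known, so their values are a description. The part of these cell types and of retinal stress in the Cryab and Crybb3 differences was not tested.

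Between IF + NaIO3 and IF + PBS, 4 crystallins were tested, 0 of them were called and 0% of 15305 genes were called, with 15.2% at an unadjusted p under 0.05. DESeq2 gave an adjusted p only for Cryab and did not call it. Cryab was at -0.27 ± 0.14 (adjusted p = 0.377), Crybb3 at -0.09 ± 0.40 (0.929) and Crybb1 at -0.03 ± 0.51 (0.981). Crygn was at -1.39 ± 0.59 (unadjusted p = 0.039, adjusted p = 0.304), the only crystallin of the 4 under 0.05 before adjustment. The other 6 crystallins were at or near the floor in both groups. The interaction of diet and injection, fitted on the 12 libraries, called 0 of the 9 crystallins tested and 0.0313% of 15970 genes, with 2 of the crystallins and 12% of the genes at an unadjusted p under 0.05. DESeq2 gave an adjusted p for 4 of them and called 0. The smallest edgeR adjusted p among the crystallins was 0.271, for Cryba1. That gene passed the filter only through AL + PBS, so the 12% is no measure for it.

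AL + NaIO3 was also the group in which genes of the stressed retina stood out. Of 15 genes of retinal stress and reactive Müller glia, 15 had a positive fold change between AL + NaIO3 and AL + PBS, and the median of the 15 was 2.84 on the log2 scale. In the edgeR test 3 of them were called higher, Edn2, Lcn2 and Cebpd, where 0.0769% of all genes tested were called. The list was chosen with earlier results of these data known, so its direction and calls are a description. Timp1, an inhibitor of matrix metalloproteinases, had the largest fitted change, at 4.54 ± 0.91 (adjusted p = 0.193), and Cp, ceruloplasmin, the most abundant gene of the list, was at 1.18 ± 0.28 (0.259). Their summed level was 1093, 1199 and 2867 CPM in AL + NaIO3 replicates 1, 2 and 3 and between 406.9 and 497.8 CPM in the other 9 libraries. Gfap, the intermediate filament of reactive glia, was at 112.0, 97.1 and 307.7 CPM in AL + NaIO3 and between 10.7 and 23.1 CPM elsewhere, with a log2 fold change of 3.34 ± 0.48 (adjusted p = 0.0873). For Cryab the AL + NaIO3 replicates had the same highest library as Gfap. Replicates 1 and 2, at 58.9 and 63.6 CPM, were within the range of the other groups, though with AL + PBS replicate 2 set aside the highest of the other 8 libraries was 60.5 CPM, so that replicates 2 and 3 were above them all and replicate 1 was not. Other cell types were also highest in AL + NaIO3 replicate 3: the iris and ciliary body list summed to 336 CPM there against 45.9 to 88.0 in the other 11 libraries, and the macrophage and microglia list to 332.7 CPM, against 174.4 and 127.6 in its group mates and 51.2 to 70.7 in the other 9. The part of these cells and of the stroma in its Cryab level was not tested.

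**Figure D5:**
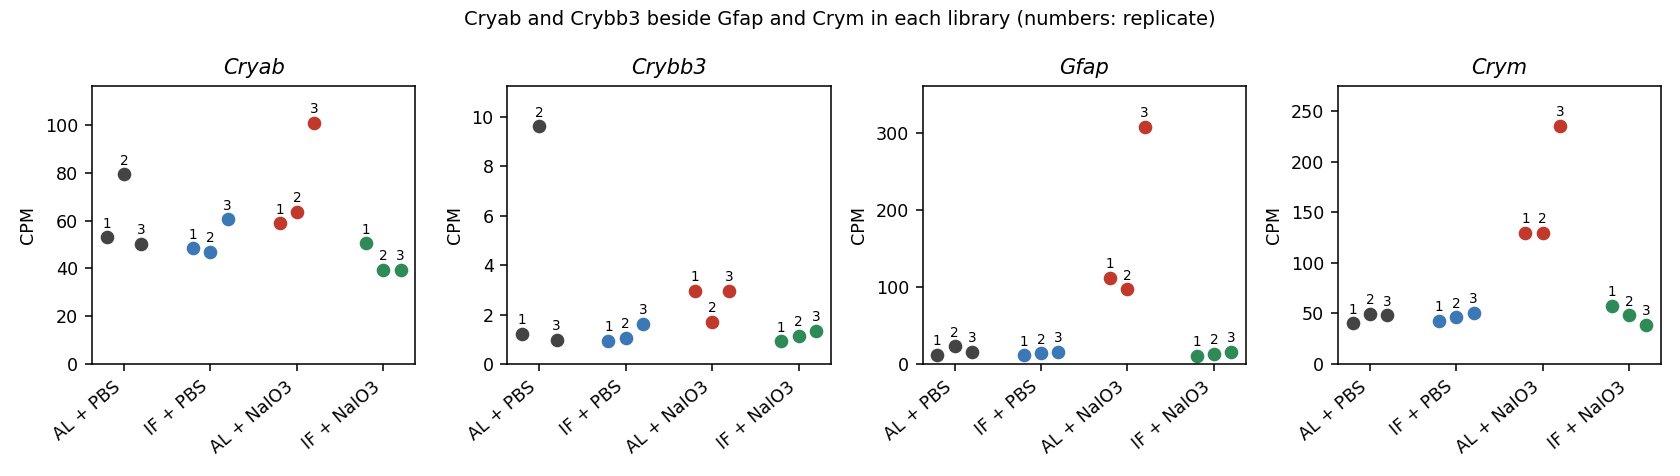
CPM of Cryab, Crybb3, Gfap and Crym in each of the 12 libraries by group, with the replicate number above each point and axes from 0. AL + NaIO3 replicate 3 is the highest library for Cryab, Gfap and Crym, and AL + PBS replicate 2 for Crybb3, whose 3 AL + NaIO3 points come next.

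Genes related to the crystallins by name, family or regulation were examined in the comparisons of AL + NaIO3 with AL + PBS and with IF + NaIO3, where 0.0769% and 0.0383% of all genes were called, a background at which 0 calls in a list this short is not a result. Among 7 genes called crystallins for their use in the lenses of other animals or for a distant beta and gamma fold, 0 were called, and their summed level was 268.3 to 388.9 CPM in AL + NaIO3 and 173.1 to 204.7 CPM in the other 9 libraries. Crym alone carried this separation: the sum of the other 6 genes was 138.6 to 157.4 CPM in AL + NaIO3 and 129.4 to 152 CPM elsewhere. The list medians on the log2 scale were 0.31 for AL + NaIO3 against AL + PBS and -0.38 for IF + NaIO3 against AL + NaIO3. Crym, a thyroid hormone binding protein, was at 129.6, 129.9 and 235.5 CPM in AL + NaIO3 and between 38.8 and 57.7 CPM in the other libraries, with a log2 fold change of 1.85 ± 0.25 (adjusted p = 0.0672) against AL + PBS. Between IF + NaIO3 and AL + NaIO3 it was at -1.78 ± 0.27 (adjusted p = 0.0957), also without overlap. Of 8 small heat shock proteins, the family of the alpha crystallins, 7 were tested and 0 called, and the median on the log2 scale was 0.24 for AL + NaIO3 against AL + PBS and -0.43 for IF + NaIO3 against AL + NaIO3. Hspb1 was nearest to Cryab in the second of these, at -0.67 ± 0.26 (adjusted p = 0.384), while Hspb6, the most abundant of the family list, was at -0.27 ± 0.19 (0.594). Of 12 genes of the heat shock response, 12 were tested and 0 called in either comparison, with medians of -0.12 and 0.30; in the first, the co-chaperone Bag3 was at 1.00 ± 0.37 (adjusted p = 0.417) and Hsp90aa1, the most abundant, at -0.28 ± 0.38 (0.846). Of 11 transcription factors that act on crystallin genes, 8 were tested and 0 called, with medians of 0.07 and -0.02. In the first of these Mafg was at -0.50 ± 0.16 (adjusted p = 0.353) and Pax6, the most abundant, at 0.12 ± 0.16 (0.852); Pitx3, Foxe3 and Sox1 did not pass the filter.

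The genes most like each crystallin over the libraries were found by Pearson's correlation of log2 CPM over the 11 libraries other than AL + PBS replicate 2, among 15970 genes, and are given as a description. Cryaa and Cryba1 were each nearest to the other (r = 0.927), and Crybb2 was among the 3 genes nearest to Cryaa (0.856); these values rest on the AL + PBS traces of replicates 1 and 3. Cryab was nearest to Tmco4 (0.970), H2-Ab1 (0.960) and Ly9 (0.955), and had values of 0.728 with Crybb3 and 0.663 with Crygn, against -0.12 with Cryaa and -0.096 with Cryba1. Crybb3 and Crygn were at 0.651 with each other. The values among Cryab, Crybb3 and Crygn were thus positive but below those of the nearest genes of each. How many genes reach such values was not counted, so no shared variation is read from them. Crybb3 was nearest to Btg3 (0.947), Crybb1 to Ildr1 (0.887), and Crygn to Gdf15 (0.924), with no other crystallin among the 3 nearest genes of any of these. The libraries share tissue composition and depth, and several of the crystallin values are near the floor.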

How the data were processed

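RNA from eye cups was poly-A selected and sequenced by the authors with 150-base reads, which the methods call single-end and the labels paired-end. The submitters' processing notes name HISAT2, StringTie, DESeq2, edgeR and GRCm39, although the gene positions in the table are those of GRCm38 (21203 of 21205 matched genes overlap). The deposited counts are whole numbers per gene without normalization. The deposited FPKM values, which the authors divided by gene length and library size, were used to compare genes. Whether strand was used in counting is not given in the sources used here, and reads shared by genes that overlap may not be assigned correctly. The authors' deposited table of one comparison (log2 fold changes and p-values by the authors, mean counts and TPM) was not used.

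Counts were tested in R 4.3.3 with edgeR 4.0.16 (TMM factors, filterByExpr, quasi-likelihood test on the 6 libraries of each pair of groups, Benjamini-Hochberg adjustment over all genes tested, called at adjusted p under 0.05 and at least 1.5-fold), and the interaction was fitted on the 12 libraries. Libraries of a group were not duplicates: the chi-square per degree of freedom of their counts was between 12.8 and 229. Log2 CPM for likeness used a prior count of 2. Total counts per library ran from 26364665 to 43046950, and counting error is given by intervals where proportions of low counts are compared. The script was tested on simulated data. Alternatives were DESeq2 1.42.0, upper quartile scaling, other filters, a fit of the 12 libraries, the replicate number as a block, no fold threshold, FPKM or unscaled CPM, and leaving out each library. Adding a 12-library fit without AL + PBS replicate 2, and other folds for the excess of that library, was decided after seeing the data. Genes outside the 10 were named by a rule: for each list, the gene of largest change between AL + NaIO3 and AL + PBS, the most abundant and any called, and the nearest genes of each crystallin over the 12 libraries. It was not followed for lists given only by a summed level, and the nearest genes are given over 11 libraries; genes outside the rule were named after their values were seen. A gene of these lists is not reported here. The crystallins and all gene lists were chosen with earlier results of these data known.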

Additional observations from a re-analysis of the deposited data

Results flagged for a closer look

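The order of the Cryba1 libraries with injection was opposite in the 2 diets, but a difference between the diets is not shown. In freely fed mice each AL + PBS library (1.28, 30.3 and 0.884 CPM) was above each AL + NaIO3 library (0, 0.426 and 0.0537 CPM), a log2 ratio of group means of -6.08; edgeR's fitted change was -6.13, and -2.78 without AL + PBS replicate 2. In fasted mice each IF + NaIO3 library, with 3, 7 and 3 counts, was above each IF + PBS library, with 0 counts, so both groups were at or near the floor of 3 counts. The interaction test in edgeR gave an unadjusted p of 0.00541 and an adjusted p of 0.271, and without AL + PBS replicate 2 an adjusted p of 0.477. Cryba1 passed the filter only through AL + PBS, which fixed the order in freely fed mice. Both orders are thus a description, and nothing on a difference between the diets is read from these p-values. No size is given for the interaction, since a fitted value with a group at 0 counts depends on how the fit treats zeros.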

How the results depend on the processing

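The 33 fitted crystallin values were recomputed under 476 alternatives in all, of which 434 kept direction and side of the threshold and 16, all from DESeq2, had no adjusted p. Crystallins called went from 0 to 2 in AL + NaIO3 against AL + PBS with the replicate number as a block (Cryaa, Cryba1, with 0.179% of all genes called) and 2 with the 12 libraries in 1 fit (Cryaa, Crybb2; 1.11%), to 1 in IF + NaIO3 against AL + NaIO3 with DESeq2 (Cryab; 3.05%), to 3 in IF + PBS against AL + PBS with the replicate block (Cryaa, Cryba1, Crybb2; 5 of 15361 genes, 0.0325%), and to 1 for the interaction with the replicate block (Cryaa; 0.0501%). Leaving out single libraries gave 0 to 2 calls in IF + PBS against AL + PBS, the 2 being Cryba1 and Crybb2 without IF + PBS replicate 1, when 472 of 15602 genes were called. Of these, Cryaa, Cryba1 and Crybb2 passed the filter only through AL + PBS, so their calls are not taken as support. Nothing shows that equal replicate numbers pair the libraries: the correlations of their deviations ran from -0.101 to 0.138.

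Direction changed for Crybb3 in AL + NaIO3 against AL + PBS, to 0.24 with the replicate block, 1.20 without AL + PBS replicate 2 (range over libraries left out -1.09 to 1.20) and 1.20 in the 12-library fit without it. In IF + PBS against AL + PBS, leaving that library out gave Cryab 0.0097 (range -0.35 to 0.0097) and Crybb3 0.13 (-2.17 to 0.13), and the 12-library fit without it 0.0068 and 0.13. Leaving out single libraries also moved Crybb1 across 0 in IF + NaIO3 against AL + NaIO3 (-0.58 to 0.079) and against IF + PBS (-0.39 to 0.26), Crybb3 in the latter (-0.25 to 0.18), and the interaction of Cryba4 (-1.38 to 3.41) and Crybb3 (-1.30 to 1.02); both interactions turned without AL + PBS replicate 2. Apart from the libraries left out, the cause was not tested.

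Calls over all genes in the 4 comparisons and the interaction went from 12, 6, 0, 0 and 5 in edgeR to 411, 478, 189, 80 and 215 in DESeq2. The number of crystallins highest in AL + PBS replicate 2, which is 8, has no value without that library. Depth limits Cryaa, Cryba1, Cryba2, Cryba4, Crybb2 and Crygs outside AL + PBS, where a library's 3 counts are 0.0806 to 0.107 CPM.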
